A study of Mus musculus with 12 samples.

Results

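C10 is a mouse B lineage cell line that carries an inducible form of C/EBPa, a transcription factor of the granulocyte and macrophage lineage, and the series follows its conversion into macrophage-type cells. The comparison described here sets the 2 C10 arrays at 24 h of beta-estradiol, the inducer, against the 2 C10 arrays that received ethanol, the vehicle of the inducer. These are 4 of the 12 arrays of the series; the other 8 are duplicates of C10 at 3 h, 12 h and 48 h of beta-estradiol and of HAFTL, a fetal liver cell line transformed by the Ha-ras oncogene, treated with beta-estradiol. Every gene with a reading was taken: 18193 genes had a named probe set and 11696 of them were bright enough to be tested. The inducible C/EBPa is carried by every C10 group, vehicle included, so that the comparison is of inducer against vehicle within 1 line. The labels give no time for the vehicle arrays and do not say whether duplicate arrays hold separate cultures; p-values here therefore measure only how these arrays spread, which may be technical.

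C/EBPa works together with PU.1, the product of Spi1, on genes of granulocytes and macrophages, and its forced expression in B lineage cells silences their programme while myeloid genes come on. Early B cells depend on Ebf1, Pax5 and E proteins, rearrange their immunoglobulin genes with the Rag recombinase, and signal through a pre-B receptor and the interleukin-7 receptor. Macrophages are long-lived phagocytes that bear receptors for microbes, complement and immunoglobulin, carry large lysosomes, and leave the cell cycle as they mature.

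Values are signals of the probe set that is brightest over all arrays, quantile-normalised and with 16 as the lowest value. A level of 74.65, the median of all values, was taken as the limit of a reliable signal. Differences are log2, 24 h minus vehicle unless another pair is named, with the standard error of the fit (n = 2 arrays against 2). A gene was called where limma's moderated test gave an adjusted p below 0.05 over all 11696 genes. Where both arrays of the dimmer group lay under the level, the fold is a lower bound against that level. List counts and medians cover the members bright enough to be tested. A gene that was dim in vehicle could enter only through the arrays where it was high, so in lists with many dim members they describe the tested genes and support nothing. Under the filter were 10 of 26 chemokines, 8 of 19 granule genes, 8 of 23 integrin subunits, 6 of 19 chemoattractant receptors, 6 of 14 complement genes, 5 of 18 lectins and scavenger receptors and 5 of 17 plasminogen and coagulation genes.

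By these rules 2825 genes (24.2%) rose and 3892 genes (33.3%) fell at 24 h, and the median difference over all genes tested was -0.13. Among called genes, 1340 rose and 1779 fell by a factor of 2 or more, whereas 240 rose and 145 fell by a factor of 8 or more, so the larger changes were more often rises. In 290 of the genes that rose the vehicle signal was under the level on both arrays, and in 276 of those that fell the 24 h signal was. The balance of rises and falls rests on the scaling: rises made up 42.1% of calls with quantile normalisation and 63.9% when the arrays were scaled to their poly-A spike-in probe sets, which moved the median of all genes to 0.17. Differences and list medians below are printed without subtracting the median of all genes (-0.13 with quantile normalisation), and are to be read beside it. List counts are to be read against the shares of 24.2% and 33.3%. In RNA from whole cultures, fewer cells with a transcript and less of it in each cell cannot be told apart.

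**Figure D1:**
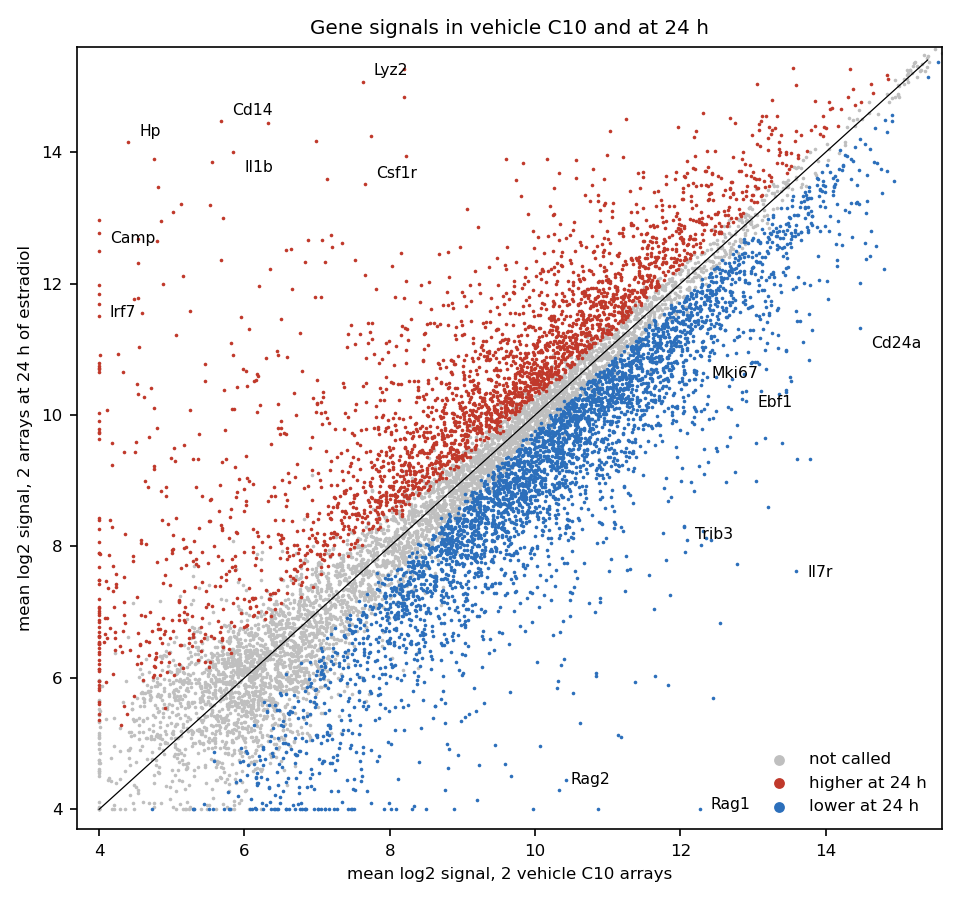
Mean log2 signal of the 11696 tested genes in the 2 vehicle C10 arrays (x axis) and the 2 arrays at 24 h of estradiol (y axis). Red points were called higher (2825), blue points lower (3892) and grey points were not called; the line marks equal signals. The genes farthest above the line, such as Hp and Cd14, had vehicle signals under the level, and Rag1 lies on the floor at 24 h.

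Marker genes of the labelled lineages were read first. The summed signal of 24 macrophage markers was 14303 and 14674 in the vehicle arrays and 150420 and 146908 at 24 h, and of the 22 tested 20 rose. Csf1r, the receptor for macrophage colony-stimulating factor, rose from 190.0 and 215 to 11529 and 11869, a difference of 5.86 ± 0.16. Mpeg1, a pore-forming protein of phagocytes, went from 65.2 and 16 to 8976 and 8508 (at least 117-fold higher, adjusted p = 1.29e-05). Itgam, the CD11b integrin chain, went from 16 and 20.8 to 262 and 164 (at least 2.78-fold higher, adjusted p = 4.51e-05). Adgre1, which encodes the macrophage antigen F4/80, did not pass the test, with 88.5 and 87.7 in vehicle and 118 and 108 at 24 h (0.36 ± 0.42, adjusted p = 0.5). Mrc1, the mannose receptor of some tissue macrophages, fell instead from 259 and 257 to 73.2 and 74.9 (-1.80 ± 0.26, of uncertain size because 1 array of the dimmer group was under the level). The summed signal of 14 B cell markers was 142127 and 141170 in vehicle and 30589 and 28727 at 24 h, and 13 of the 14 fell (9 with spike-in scaling).

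The probe set of Cebpa was at the floor of 16 on both vehicle and both 24 h arrays, so this probe set gave no reading of the inducible factor. Esr1, which encodes an estrogen receptor, fell from 207 and 209.7 to 54.5 and 41.2 (at least 2.79-fold lower, adjusted p = 2.54e-04). Among lists for other cell types, 3 of 5 tested neutrophil markers rose (summed signal of 11 genes 340 and 311 in vehicle, 22390 and 21042 at 24 h). Those 3, Camp, Mmp8 and S100a8, were under the level in vehicle. The other 6 of the 11, Elane and Csf3r among them, were under the filter, and Cxcr2 was at the floor on both 24 h arrays. The sums of 12 stroma genes were 785 and 1116 in vehicle and 6701 and 6704 at 24 h, with Dcn at the floor, and Acta2, smooth muscle actin, rose from 20.5 and 128 to 5370.3 and 5132 (6.68 ± 0.70, of uncertain size because 1 array of the dimmer group was under the level). Dendritic cell markers summed to 6241 and 6481 in vehicle and 1843 and 2042 at 24 h, with 1 of 6 tested higher and 3 lower. Sums of 12 mast cell, basophil and eosinophil genes were 363 and 348, then 1079 and 1250, and those of 10 erythroid and megakaryocyte genes 599 and 557, then 662 and 575. For T and NK cells the sums of 10 genes were 502 and 595 in vehicle and 897 and 395 at 24 h, with Cd3d, Cd4 and Gata3 at the floor at 24 h. The 3 tested, Cd8a (0.39 ± 0.47, adjusted p = 0.51), Prf1 (-1.07 ± 0.70, adjusted p = 0.233) and Zap70 (-0.10 ± 1.10, adjusted p = 0.944), did not pass. The ratio of the 5′ to the 3′ Actb probe sets, a measure of RNA integrity, was 0.610 ± 0.0398 (SD, n = 2) in vehicle and 0.821 ± 0.024 at 24 h, and its part in the results was not tested. Duplicate arrays correlated at 0.980 in vehicle and 0.978 at 24 h over the tested genes.

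The factors that specify B cells fell as a group. All 18 B lineage transcription factors measured were lower at 24 h, with a median of -2.45. With spike-in scaling 14 were called lower. Already at 12 h 17 of the 18 were lower than in vehicle (against 28.7% of all genes), with a median of -2.35, or -1.61 with spike-in scaling. Ikzf3, the Ikaros-family factor Aiolos, fell from 1520.2 and 1419.7 to 43.7 and 67.5 (at least 19.7-fold lower, adjusted p = 1.17e-06). Bcl11a, needed for early lymphoid development, fell from 5009 and 4968 to 221 and 303, a difference of -4.27 ± 0.16. Bach2, a repressor that holds B cells short of plasma cell fate, fell from 5985 and 4606 to 306 and 259 (-4.22 ± 0.21). In all 3 genes both 24 h arrays lay far under both vehicle arrays. Aff3, a nuclear protein of lymphoid cells, and Spib, an Ets factor close to PU.1, fell by similar amounts (-4.14 ± 0.19 and -3.91 ± 0.15). Ebf1, which commits cells to the B lineage, kept part of its signal, falling from 8155 and 7222 to 1188 and 1475 (-2.54 ± 0.13). Pax5, the other commitment factor, had a lower vehicle signal and fell from 426 and 556 to 174 and 179 (-1.46 ± 0.29).

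Recombinase and pre-B receptor genes went the same way to different depths. Rag1, whose product cuts DNA at immunoglobulin gene segments, fell from 4927 and 4904 to 16 on both arrays (at least 65.8-fold lower, adjusted p = 9.33e-07). Rag2, its obligate partner, fell from 1330 and 1252 to 24 and 16 (at least 17.3-fold lower, adjusted p = 2.29e-07). Xrcc6, the Ku70 subunit of the end-joining machinery, fell from 2157 and 2217 to 308 and 339.6 (-2.76 ± 0.10). Of the 9 recombination genes 6 fell. Of the 20 genes of the pre-B receptor and its proximal signalling, 13 fell and 2 rose (median -0.99). Vpreb3, a surrogate light chain partner, fell from 10903 and 11529 to 1486 and 1205 (-3.07 ± 0.11), and Bank1, a B cell scaffold, fell from 4332 and 3929 to 524 and 500.2 (-3.01 ± 0.28). Ighm, the mu heavy chain, fell from 11725 and 11701 to 1439 and 1504 (-2.99 ± 0.09) and was thus still bright at 24 h. The 2 that rose have roles outside the B lineage too: Dok3, an adaptor that dampens receptor signals, rose from 1082 and 927 to 1878 and 2096 (0.99 ± 0.14), and Ptpn6, the phosphatase SHP-1, rose from 3756 and 4222 to 5095 and 5588 (0.42 ± 0.10). Il7r, the receptor chain on which early B cells depend, fell from 12927 and 11842 to 192 and 203, a difference of -5.97 ± 0.11.

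Several of the 20 largest falls were in genes outside the B lineage, recombination and pre-B receptor lists. Enpep, the aminopeptidase known as the BP-1 antigen of early B cells, fell from 6050.3 and 5165 to 53.6 and 50.2 (at least 74.9-fold lower, adjusted p = 4.40e-06). Tmem255a, a membrane protein, fell from 1983 and 1768 to 16 on both arrays (at least 25.1-fold lower, adjusted p = 5.98e-07). Cd244a, a receptor of the SLAM family, fell from 1058 and 951 to 16 on both arrays (at least 13.4-fold lower, adjusted p = 3.24e-08). For Rag1, Tmem255a and Cd244a both 24 h arrays sat at the floor, so their true fold could not be read. Ddc, which makes dopamine and serotonin from their precursors, fell from 6984 and 7134 to 225 and 204 (-5.04 ± 0.10). Pfn2, a profilin that binds actin monomers, fell from 3823 and 3478 to 69.4 and 51.2 (at least 48.8-fold lower, adjusted p = 1.86e-07). Ighv14-2, an immunoglobulin heavy chain variable gene that shares sequence with its family, fell from 3216 and 3236 to 46.3 and 92, -5.63 ± 0.37, of uncertain size because 1 array of the dimmer group was under the level. The remaining members of that set, among them Crisp3, Megf10, Gfra1, Umod and Esco2, had bounds between 6.32-fold for Adgrb2 and 31.1-fold for Crisp3 except Gfra1 (at least 35.6-fold lower, adjusted p = 6.76e-06) and Ttll11, whose 24 h arrays disagreed at 65.6 and 199.8.

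Myeloid transcription factors rose in most cases: 14 of 17 C/EBP, PU.1 and partner genes were higher and 2 were lower (median 1.23). Nfil3, a basic leucine zipper factor, went from 16 on both arrays to 1746 and 1589.9 (at least 22.3-fold higher, adjusted p = 2.07e-05). Cebpd, a C/EBP factor of acute inflammation, rose from 83.4 and 108 to 5872 and 5781 (5.94 ± 0.17). Spi1 was already bright in vehicle and rose from 1570.3 and 1369.7 to 4638 and 4599 (1.66 ± 0.09). Tfec, a macrophage relative of Mitf, went from 45.5 and 16 to 683 and 519 (at least 7.98-fold higher, adjusted p = 5.32e-05), and Id2, an inhibitor of E proteins, rose from 277 and 311 to 3285 and 3774 (3.58 ± 0.12). Both genes of the list that fell were bright in vehicle. Irf8, a factor shared by B cells and monocytes, fell from 14861 and 15174 to 7377 and 7444 (-1.02 ± 0.09), and Cebpg, a C/EBP protein without an activation domain, fell from 3399.9 and 3302 to 1213 and 1190 (-1.48 ± 0.07). Of 15 AP-1 genes 10 rose (median 0.70), led by Fosl2 from 16 on both arrays to 3401 and 3231 (at least 44.4-fold higher, adjusted p = 1.04e-07) and Fos from 135 and 157 to 7188 and 6497 (5.55 ± 0.09), and Jdp2, a repressor of AP-1, fell from 2711 and 2712 to 1286 and 1139 (-1.16 ± 0.11).

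Receptors by which phagocytes sense microbes mostly rose. Of 22 Toll-like receptors and adaptors 16 rose and 2 fell (median 0.95). Cd14, the coreceptor that hands lipopolysaccharide to TLR4, went from 66.2 and 39.7 to 22897 and 22467 (at least 304-fold higher, adjusted p = 7.67e-06), the highest bound among the genes named here. Tlr2, the receptor for bacterial lipopeptides, rose from 309.6 and 288 to 15674 and 15755 (5.72 ± 0.18). Irak2, a kinase downstream of MyD88, rose from 271 and 224 to 1469.7 and 1591 (2.63 ± 0.12). Against the majority, Cd180, a TLR-like protein of B cells, fell from 286 and 319.7 to 193 and 152 (-0.82 ± 0.13) and Traf6, a ubiquitin ligase of the pathway, fell from 613 and 597 to 353 and 396 (-0.70 ± 0.15). Of 15 cytosolic sensors and inflammasome genes 12 rose (median 1.82). Zbp1, a sensor of Z-form nucleic acid, went from 16 on both arrays to 919 and 854 (at least 11.9-fold higher, adjusted p = 6.20e-08), Ifih1, the MDA5 sensor of double-stranded RNA, rose from 100.3 and 105 to 1349 and 1247 (3.66 ± 0.48), and Nlrp3, an inflammasome sensor, rose from 136 and 141 to 1106 and 1020.5 (2.94 ± 0.22).

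Fc receptors split by lineage, with 5 of 8 higher and 2 lower. Fcgr3, a low-affinity receptor for immunoglobulin G, went from 59.7 and 35.7 to 9601 and 9111 (at least 125-fold higher, adjusted p = 5.98e-07), and Fcgr1, the high-affinity receptor, rose from 248 and 278 to 4904 and 4999 (4.24 ± 0.13). The B cell relatives Fcrl1 and Fcrla fell, the first from 3230.1 and 3164 to 181 and 95.7 (-4.60 ± 0.26) and the second from 923 and 857 to 83.1 and 147 (-3.01 ± 0.23). Among C-type lectins and scavenger receptors 11 of 13 rose (median 2.97, or 1.90 with dim genes at their bound). Clec4d and Clec4e, lectins for fungal and mycobacterial ligands, rose, the first from 48.7 and 35.1 to 834 and 846 (at least 11.3-fold higher, adjusted p = 3.39e-06) and the second from 16 on both arrays to 338 and 342 (at least 4.55-fold higher, adjusted p = 3.82e-05), and Clec7a, the dectin-1 receptor for beta-glucan, rose from 838 and 961 to 10221 and 10326 (3.52 ± 0.09). Of the 15 integrin subunits 10 rose, with Itgb7 going from 34 and 22.9 to 888 and 895 (at least 11.9-fold higher, adjusted p = 4.24e-04) and Itgax, the CD11c chain, from 50.5 and 42 to 434 and 405 (at least 5.61-fold higher, adjusted p = 0.00144). Itga6 and Itgav, subunits of laminin and vitronectin receptors, fell by less (-0.99 ± 0.16 and -0.42 ± 0.06).

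Chemotaxis genes also went both ways: of 13 chemoattractant receptors 8 rose and 3 fell (median 2.10). C3ar1, the receptor for complement fragment C3a, went from 16 and 33.4 to 3331 and 3721 (at least 47.2-fold higher, adjusted p = 1.61e-06), and Ccr1, a receptor for inflammatory chemokines, rose from 125 and 144 to 6569.5 and 6423 (5.60 ± 0.12). Gpr84, a receptor for medium-chain fatty acids, rose from 142 and 97.1 to 6436 and 6597 (5.79 ± 0.16). The receptors that home B cells and their progenitors fell: Cxcr4 from 2801 and 2136 to 267 and 201 (-3.40 ± 0.19), Ccr6 from 463 and 434 to 38 and 16 (at least 6.01-fold lower, adjusted p = 4.44e-05) and Ccr7 from 151 and 127 to 16 on both arrays (at least 1.86-fold lower, adjusted p = 1.88e-07). Of 16 chemokines 7 rose. Ccl2, which draws monocytes, went from 37.1 and 73.9 to 7692 and 8721 (at least 110-fold higher, adjusted p = 8.30e-06), Ccl9 rose from 305 and 285 to 30503 and 28256 (6.64 ± 0.12) and Ccl6 rose from 161 and 135 to 6291 and 5729.7 (5.35 ± 0.12). Cytokine receptors rose in 13 of 20 cases. Those that rose include Csf2ra, of the receptor for granulocyte-macrophage colony-stimulating factor (2.78 ± 0.15), and Csf2rb2 (3.09 ± 0.09). Lifr, the receptor for leukaemia inhibitory factor, fell from 2061 and 2009.9 to 989 and 941 (-1.08 ± 0.24).

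Of 8 interleukin-1 family genes 4 rose and 1 fell, and both the cytokine and its natural antagonist were among the 20 largest rises of all genes. Il1b, a fever-inducing cytokine, went from 63.8 and 51.9 to 17204 and 15674 (at least 220-fold higher, adjusted p = 4.53e-08). Il1rn, which blocks the interleukin-1 receptor, went from 46 and 16 to 15755 and 14795 (at least 205-fold higher, adjusted p = 3.05e-06). Both genes were under the level on each vehicle array and among the brightest of the named genes at 24 h. Il18, a relative processed by the same caspase, rose from 765 and 720.5 to 2086 and 2049 (1.48 ± 0.15), whereas Il33 fell from 588 and 651 to 87.9 and 112 (-2.64 ± 0.21). In the TNF family of 16 genes 7 rose and 4 fell (against 24.2% and 33.3% of all genes). Fas, the death receptor, went from 31.9 and 60.7 to 1774 and 1748 (at least 23.6-fold higher, adjusted p = 3.81e-06), and Lta, lymphotoxin alpha, fell from 8117 and 8714 to 527 and 500.4 (-4.03 ± 0.22).

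Signal relays and their brakes had smaller medians. JAK, STAT and SOCS genes rose in 10 of 18 cases (median 0.56), with Socs3, a feedback inhibitor of cytokine receptors, rising from 1070.3 and 1373 to 5977 and 5592 (2.25 ± 0.17), and Jak1 falling from 8721 and 8699.9 to 6343 and 6291 (-0.46 ± 0.09). Of 14 NF-kB genes 8 rose (median 0.63), including Ikbke, an inducible kinase, from 170.3 and 252 to 2267 and 2126 (3.41 ± 0.27) and Tnfaip3, the A20 inhibitor, from 281 and 237 to 1568 and 1336 (2.49 ± 0.12). ERK feedback genes went both ways, 4 higher and 7 lower of 15 (against 24.2% and 33.3% of all genes), with a median of -0.64. Dusp1, a phosphatase induced by stress, rose from 92.9 and 140.2 to 5539 and 4791 (5.50 ± 0.27), while Ier5, an immediate-early gene, fell from 9890.1 and 9670.2 to 2449 and 2412 (-2.01 ± 0.10).

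Interferon effector genes rose almost without exception at 24 h: 35 of 36 were called higher, against 24.2% of all genes, with a median of 3.14. Only Gbp3, a guanylate-binding GTPase, did not pass, at 1371 and 1196 in vehicle and 1010.2 and 1125 at 24 h (-0.26 ± 0.15, adjusted p = 0.163). Ifi202b, a DNA-binding protein of the p200 family, went from 46.7 and 46.8 to 14278 and 15434 (at least 199-fold higher, adjusted p = 4.28e-08), and Usp18, which removes the ubiquitin-like modifier ISG15, went from 52.1 and 16 to 7730.1 and 8072 (at least 106-fold higher, adjusted p = 6.19e-06). Mx1, a GTPase that blocks influenza virus, went from 16 and 33.7 to 4788 and 5364 (at least 67.9-fold higher, adjusted p = 1.90e-05). Ifitm1 and Ifitm3, membrane proteins that hinder viral entry, were among the brightest at 24 h: Ifitm1 rose from 87.5 and 73.3 to 23054 and 21429 (8.12 ± 0.28, of uncertain size because 1 array of the dimmer group was under the level) and Ifitm3 from 76.9 and 16 to 9444 and 9524 (8.08 ± 0.69, of uncertain size because 1 array of the dimmer group was under the level). Irf7, the factor that amplifies interferon genes, went from 16 on both arrays to 3460.1 and 3856 (at least 48.9-fold higher, adjusted p = 1.99e-06), and Stat2 and Irf9, which relay the interferon signal to the nucleus, rose by 2.71 ± 0.17 and 2.86 ± 0.13. Of 11 interferon ligands, receptors and factors 8 rose and 1 fell (median 0.88). The interferon gene Ifnb1 did not pass, at 37.8 and 57.2 in vehicle and 74.6 and 78.7 at 24 h (0.72 ± 0.30, adjusted p = 0.0776).

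The interferon-stimulated response element is a DNA motif found at many interferon-induced genes, and its core was searched as AAANNGAAA on both strands of the 300 bases around the RefSeq start of each gene (250 before to 50 after, GRCm38.p6). It was present in 16 of the 25 effector genes with a promoter entry among the 35 that rose (64%), and in 9.58% of the 9476 tested genes with an entry. The windows of Ifitm3 (chr7:141010695-141010994, minus strand) and Rsad2 (chr12:26456403-26456702, minus strand) are shown because these were the effector genes with the largest called rises that held a match, in capitals.
Ifitm3: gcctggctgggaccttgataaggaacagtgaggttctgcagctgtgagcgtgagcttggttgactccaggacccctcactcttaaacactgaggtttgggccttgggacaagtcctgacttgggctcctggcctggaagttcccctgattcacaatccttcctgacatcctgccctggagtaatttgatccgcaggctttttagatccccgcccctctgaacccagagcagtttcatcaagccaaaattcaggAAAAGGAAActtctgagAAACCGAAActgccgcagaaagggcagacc
Rsad2: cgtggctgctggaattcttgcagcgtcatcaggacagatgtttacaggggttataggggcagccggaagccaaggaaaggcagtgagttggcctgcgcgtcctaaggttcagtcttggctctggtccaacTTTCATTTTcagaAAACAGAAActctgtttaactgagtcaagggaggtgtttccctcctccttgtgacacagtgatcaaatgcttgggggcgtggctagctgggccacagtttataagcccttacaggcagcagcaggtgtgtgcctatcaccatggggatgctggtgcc
In Ifitm3 the 2 matches begin 3 and 20 bases after the start, and in Rsad2 they begin 120 and 107 bases before it. Rsad2, the antiviral enzyme viperin, went from 70.5 and 77.2 to 3849 and 4186, a difference of 5.77 ± 0.32, of uncertain size because 1 array of the dimmer group was under the level. Each motif was searched on its own, so matches of different motifs may overlap, and a match describes the letters and not binding.

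Antigen presentation was divided. The class I pathway and immunoproteasome rose in 12 of 17 genes by a median of 0.47, with Nlrc5, the class I transactivator, rising from 603 and 641 to 1958 and 2092 (1.70 ± 0.08) and Tap1, the peptide transporter, from 968 and 922 to 2273 and 2508 (1.34 ± 0.08). Of 9 class II genes 2 rose and 4 fell (against 24.2% and 33.3% of all genes). H2-Aa, a classical class II chain, fell from 1215 and 1324 to 49.3 and 66.8 (at least 17-fold lower, adjusted p = 6.35e-06), and H2-Eb1 fell from 1358 and 1433 to 194 and 241 (-2.69 ± 0.11). H2-DMa, which loads peptide onto class II, rose from 824 and 755 to 2274 and 2301 (1.54 ± 0.21). Cd74, the invariant chain, rose from 11051 and 12142 to 13710 and 13856 (0.25 ± 0.08), the smallest called difference in this group. The class II genes therefore did not move as 1 set.

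**Figure D2:**
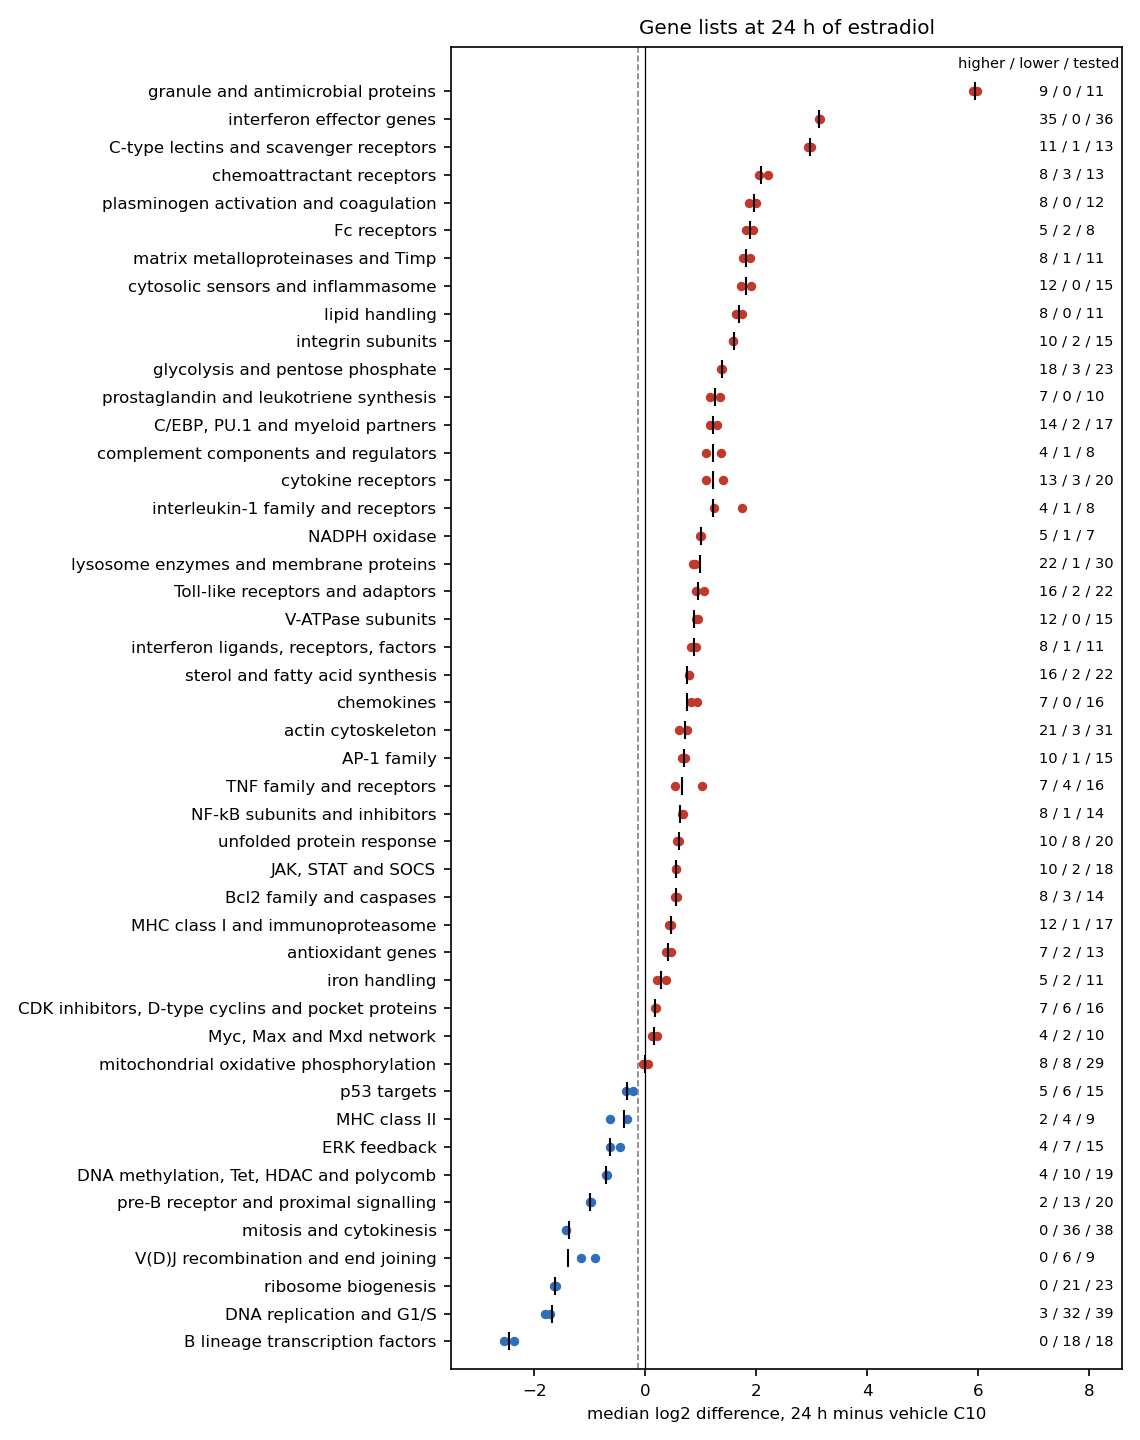
Median log2 difference of each gene list between 24 h and vehicle C10 (x axis), for the lists other than cell type markers and housekeeping genes. Points are the 2 arrays at 24 h against the vehicle mean, the black tick is the median of the fitted differences, the dashed line is the median of all tested genes (-0.13), and the numbers give the members called higher, called lower and tested. The tested granule genes (5.95, a list with 8 further members under the filter) and interferon effector genes (3.14) lie at the top and B lineage factors (-2.45) at the bottom.

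Of 19 granule and antimicrobial genes on the arrays 11 were tested, and 9 of these rose (median 5.95, or 5.53 with dim genes at their bound). Hp, haptoglobin, which binds free haemoglobin, went from 28 and 16 to 18156 and 18193 (at least 243-fold higher, adjusted p = 2.44e-06). Camp, the precursor of the antimicrobial peptide cathelicidin, went from 16 on both arrays to 8451 and 7538 (at least 107-fold higher, adjusted p = 2.27e-09), and S100a8, a subunit of calprotectin, went from 16.8 and 46 to 6677 and 6108 (at least 85.5-fold higher, adjusted p = 1.18e-05). Lyz2, macrophage lysozyme, was above the level in vehicle and rose from 171 and 229.9 to 34455 and 34229 (7.44 ± 0.14). The list shares Camp, S100a8 and other granule genes with the neutrophil markers, whose sums are given above and whose part in the result was not tested; the granule enzyme gene Mpo read 51.3 and 16 in vehicle and 76.2 and 16 at 24 h (0.29 ± 0.78, adjusted p = 0.781).

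Proteases that cut the extracellular matrix rose in 8 of 11 cases. Mmp8, a collagenase, went from 16 on both arrays to 6874 and 7152 (at least 93.9-fold higher, adjusted p = 2.83e-09). Mmp13, another collagenase, went from 26.6 and 29.6 to 11300 and 11351 (at least 152-fold higher, adjusted p = 4.28e-08), and Mmp12, the macrophage elastase, went from 16 on both arrays to 5661 and 5888 (at least 77.3-fold higher, adjusted p = 6.14e-07). The vehicle signals of these 3 genes were at or near the floor. Mmp11, stromelysin 3, fell from 339.7 and 281 to 83.3 and 172 (-1.37 ± 0.42). Of 12 genes of plasminogen activation and coagulation 8 rose, with Serpinb2, an inhibitor of plasminogen activators, going from 33.9 and 16 to 6968 and 6177 (at least 87.9-fold higher, adjusted p = 6.64e-07) and Plaur, the urokinase receptor, from 510.2 and 565 to 9202 and 8858 (4.07 ± 0.11). Igsf6, an immunoglobulin-type membrane protein outside the lists, went from 16 on both arrays to 3939 and 4147 (at least 54.1-fold higher, adjusted p = 2.27e-09).

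A C/EBP type motif, TTGCNNAA on both strands, was found in the same promoter windows of 4 of the 16 genes with an entry among the 20 largest rises (25%) and of 9.96% of tested genes with an entry. The interferon motif AAANNGAAA was more frequent in this set, in 6 of the 16 genes (37.5%) against 9.58% of tested genes with an entry. The windows of Mmp8 (chr9:7558179-7558478, plus strand) and Mmp12 (chr9:7344147-7344446, plus strand) held a match, in capitals, and are shown as the first members of that set by rank that did.
Mmp8: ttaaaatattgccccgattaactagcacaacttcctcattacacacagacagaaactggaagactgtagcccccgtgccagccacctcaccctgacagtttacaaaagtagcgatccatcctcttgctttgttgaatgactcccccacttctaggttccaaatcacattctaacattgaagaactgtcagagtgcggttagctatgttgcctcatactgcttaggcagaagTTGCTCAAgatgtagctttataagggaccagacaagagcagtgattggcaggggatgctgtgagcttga
Mmp12: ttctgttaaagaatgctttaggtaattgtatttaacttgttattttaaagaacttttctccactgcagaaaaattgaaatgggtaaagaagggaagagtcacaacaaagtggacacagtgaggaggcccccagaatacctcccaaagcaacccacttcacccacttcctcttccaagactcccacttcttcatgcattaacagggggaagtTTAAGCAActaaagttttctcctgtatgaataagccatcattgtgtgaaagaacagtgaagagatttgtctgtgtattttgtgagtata
The matches begin 19 bases before the start in Mmp8 and 39 bases before it in Mmp12, and with 16 genes the share is a description.

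Genes for engulfing and digesting particles mostly rose. Lysosome genes rose in 22 of 30 cases (median 0.98), V-ATPase subunits in 12 of 15 (median 0.89) and NADPH oxidase genes in 5 of 7 (median 1.00). Ctsd, the protease cathepsin D, rose from 1256 and 1319.5 to 13607 and 12831 (3.36 ± 0.08), and Atp6v0a1, a subunit of the proton pump that acidifies lysosomes, rose from 218 and 155 to 5014 and 5477 (4.83 ± 0.18). Cybb, the catalytic chain of the phagocyte oxidase, rose from 2309 and 2557 to 23387 and 22965 (3.25 ± 0.09), and Ncf1, its cytosolic activator p47phox, rose from 598 and 593 to 7474 and 7360 (3.64 ± 0.09). The exceptions were Lgmn, an asparaginyl protease, which fell from 3663 and 4169 to 1106 and 1114 (-1.82 ± 0.15), and Hvcn1, a proton channel, which fell from 1741 and 2048 to 638 and 631 (-1.57 ± 0.23). Actin genes rose in 21 of 31 cases (median 0.72), led by Myo1f, a class I myosin, from 201 and 204 to 4330 and 4629 (4.47 ± 0.19). Prostaglandin and leukotriene genes rose in 7 of 10, with Ptgs2, the inducible cyclooxygenase, going from 16 and 30.9 to 3453 and 3528 (at least 46.8-fold higher, adjusted p = 7.45e-07). Complement genes rose in 4 of 8, and Cd55, which protects cells from complement, fell from 150.2 and 204 to 32.1 and 28.9 (at least 2.34-fold lower, adjusted p = 3.62e-05).

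Sugar and lipid metabolism genes mostly rose. Glycolysis and pentose phosphate genes rose in 18 of 23 cases (median 1.38). Pgd, a dehydrogenase of the pentose phosphate path, rose from 2082 and 2105 to 20464 and 20310 (3.28 ± 0.09), and the glucose transporter genes Slc2a6 and Slc2a1 rose, the first from 188 and 268 to 3949 and 3773 (4.10 ± 0.19) and the second from 1042 and 839.8 to 4783 and 4872 (2.37 ± 0.12). Pfkfb3, which makes an activator of glycolysis, fell from 1135 and 1126 to 317 on both arrays (-1.83 ± 0.19). Lipid handling genes rose in 8 of 11, including Plin2, a coat protein of lipid droplets, from 1130.5 and 1157 to 15295 and 15174 (3.74 ± 0.07) and Dgat2, which makes triglycerides, from 96.3 on both arrays to 1901 and 1876 (4.29 ± 0.33). Sterol and fatty acid synthesis genes rose in 16 of 22 (median 0.76), with Srebf1, a regulator of lipid synthesis, rising from 1665 and 1468 to 4177 and 4411 (1.46 ± 0.09), while Elovl6, a fatty acid elongase, fell from 3925 and 3577 to 1573 and 1526 (-1.27 ± 0.10). The probe sets of Fdft1, Lss, Sc5d and Scd1, also in that list, were called in opposite directions, as were those of 229 genes in all. List counts take such genes by their brightest probe set, so the direction of these 4 within the count is uncertain. The same holds in other lists for Irak1 (Toll-like receptors), Syk (pre-B receptor), Il10ra (cytokine receptors), Cdkn1b and Rbl1 (CDK inhibitors), Mga (Myc network) and Atf6 (unfolded protein response).

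The sterol regulatory element, searched as TCACNCCAC on both strands, was in 1 of 12 sterol genes with an entry that rose (8.33%) and in 1.42% of tested genes. That gene was Hmgcs1, the synthase at the entry to the mevalonate path, whose match begins 137 bases before the start (chr13:119690101-119690400, plus strand), and a single match in 12 is too few to describe the list.
Hmgcs1: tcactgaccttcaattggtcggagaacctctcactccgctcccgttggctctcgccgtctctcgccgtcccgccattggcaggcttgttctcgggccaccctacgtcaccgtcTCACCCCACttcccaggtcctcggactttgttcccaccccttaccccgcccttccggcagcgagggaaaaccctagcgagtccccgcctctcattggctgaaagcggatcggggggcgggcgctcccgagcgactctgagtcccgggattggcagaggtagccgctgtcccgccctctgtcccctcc

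Calls among mitochondrial genes were evenly divided. Of 29 oxidative phosphorylation genes 8 rose and 8 fell (against 24.2% and 33.3% of all genes), with a median of 0.01. Ndufb8, a subunit of complex I, rose from 4409 and 4095 to 7169 and 7624 (0.80 ± 0.07), and Cyc1, cytochrome c1, fell from 8318 and 7515 to 4853 and 3491 (-0.94 ± 0.14). Antioxidant genes rose in 7 and fell in 2 of 13 cases, with Txn1, thioredoxin, rising from 9963 and 9594 to 21627 and 19948 (1.09 ± 0.07) and Cat, catalase, falling from 8994 and 8917 to 5044 and 5872 (-0.72 ± 0.12). In iron handling, where 5 of 11 genes rose and 2 fell, Slc11a1, the phagosomal metal transporter of macrophages, rose from 163 and 113 to 1329 and 1151 (3.19 ± 0.17), and Tfrc, the transferrin receptor of dividing cells, fell from 9101 and 8284 to 1759.6 and 1737 (-2.31 ± 0.08).

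Genes of ribosome biogenesis, replication and mitosis mostly fell at 24 h. Myc, a transcription factor that drives growth, fell from 7676 and 7956 to 2027 and 1935 (-1.98 ± 0.07), and Mxd1, an antagonist that competes for its partner Max, rose from 216 and 249 to 956 and 730.3 (1.85 ± 0.17). Of 23 ribosome biogenesis genes 21 fell (median -1.62), while Bop1 (-0.15 ± 0.12, adjusted p = 0.307) and Rrp9 (-1.27 ± 0.66, adjusted p = 0.142) did not pass. The wider Myc, Max and Mxd network had 4 higher and 2 lower genes of 10. Dkc1, the pseudouridine synthase dyskerin, fell from 5649.6 and 5923 to 743 and 658 (-3.05 ± 0.14), and Nop56, a core protein of small nucleolar particles, fell from 7012 and 7772 to 1190.5 and 1239.9 (-2.60 ± 0.10). DNA replication and G1/S genes fell in 32 of 39 cases (median -1.68), and mitosis genes in 36 of 38 (median -1.37), against 33.3% of all genes. Mcm7, a subunit of the replicative helicase, fell from 7054 and 7012 to 924 and 929.6 (-2.92 ± 0.07), and Pole, the leading-strand polymerase, fell from 843 and 771 to 74.8 and 41.1 (-3.86 ± 0.23, of uncertain size because 1 array of the dimmer group was under the level). Mki67, the Ki-67 proliferation antigen, fell from 5052 and 4899.5 to 1304 and 1503 (-1.83 ± 0.09), and Ncapg, a condensin subunit, fell from 781 and 909 to 138 and 181 (-2.41 ± 0.19).

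The replication genes had 3 exceptions, which rose. Tyms, thymidylate synthase, rose from 242 and 233 to 938 and 1066 (2.07 ± 0.19), E2f1, an activator of the G1/S genes, rose from 197 and 149 to 262 and 324 (0.77 ± 0.17), and E2f8, a repressor of them, rose from 386 and 404 to 572 and 568 (0.53 ± 0.10). Among CDK inhibitors, D-type cyclins and pocket proteins 7 rose and 6 fell of 16 (against 24.2% and 33.3% of all genes). Cdkn1a, the p21 inhibitor, rose from 1760.5 and 2075 to 8579.5 and 9171 (2.21 ± 0.12), Cdkn2a rose from 1231 and 1428 to 3574 and 3888 (1.49 ± 0.11), and Cdk6, a kinase that acts with D-type cyclins, fell from 8196 and 7747 to 2582 and 2447 (-1.66 ± 0.10).

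E2F factors bind promoters of replication genes, and late cell cycle promoters often carry a CHR element. The E2F type motif TTTNGCGC was in 10 of the 25 replication genes with a promoter entry that fell (40.0%) and in 2.87% of tested genes with one. The CHR letters TTTGAA were in 25 of the 31 mitosis genes with an entry that fell (80.6%) and in 14.6% of tested genes. The windows of Mcm7 (chr5:138171834-138172133, minus strand) and Ncapg (chr5:45669675-45669974, plus strand) are shown because they held a match, in capitals, and had the largest called falls of their lists among genes that did.
Mcm7: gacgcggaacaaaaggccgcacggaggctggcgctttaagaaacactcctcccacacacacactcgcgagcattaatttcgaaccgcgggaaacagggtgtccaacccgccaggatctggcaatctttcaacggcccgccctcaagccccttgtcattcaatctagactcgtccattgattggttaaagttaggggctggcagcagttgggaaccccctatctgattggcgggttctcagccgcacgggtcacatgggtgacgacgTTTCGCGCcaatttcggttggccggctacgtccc
Ncapg: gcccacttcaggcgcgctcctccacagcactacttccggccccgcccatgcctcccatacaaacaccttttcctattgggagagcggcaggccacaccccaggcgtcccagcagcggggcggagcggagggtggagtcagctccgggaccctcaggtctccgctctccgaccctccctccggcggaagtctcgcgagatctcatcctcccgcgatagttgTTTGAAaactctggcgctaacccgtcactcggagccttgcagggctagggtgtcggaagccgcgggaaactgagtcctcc
The Mcm7 match begins 16 bases after the start and the Ncapg match 30 bases before it.

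Stress, survival and chromatin genes did not move in 1 direction. Of 20 unfolded protein response genes 10 rose and 8 fell. Those that rose include chaperone and folding genes, such as Sdf2l1, from 499 and 497 to 5885 and 6115 (3.59 ± 0.13), and Edem1, which sorts misfolded glycoproteins, from 1282 and 1096 to 9151 and 9390 (2.97 ± 0.09). Those that fell include genes of the amino acid stress branch: Trib3, a pseudokinase, fell from 4163 and 4316 to 323 and 313 (-3.74 ± 0.09), Ddit3, the CHOP factor, fell from 7402 and 7336 to 1266 and 1338 (-2.50 ± 0.09), and Asns, asparagine synthetase, fell from 11755 and 13130 to 2604 and 2927 (-2.17 ± 0.10). Of 15 p53 targets 5 rose and 6 fell (against 24.2% and 33.3% of all genes), with a median of -0.33 that turned to 0.04 with spike-in scaling. In the Bcl2 family and caspases 8 of 14 rose, with Casp9 rising from 304 and 347 to 1001 and 869.5 (1.52 ± 0.21) and Bmf, a pro-death member, falling from 4831 and 4489 to 1497 and 1825 (-1.49 ± 0.16). Among DNA methylation, Tet, histone deacetylase and polycomb genes 4 rose and 10 fell of 19 (against 24.2% and 33.3% of all genes). Tet2, which oxidises methylcytosine, rose from 649.8 and 789.9 to 2430.3 and 2631 (1.82 ± 0.11), and Hdac7, a class IIa deacetylase, fell from 2532 and 2684 to 379.8 and 433 (-2.68 ± 0.14).

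Some of these calls rested on a setting. With spike-in scaling limma no longer called 6 of the named rises, although their differences were larger than those above: Cd74 (0.80), Dok3 (1.23), E2f1 (1.04), E2f8 (0.77), Ndufb8 (1.23) and Ptpn6 (0.82). It also no longer called falls that became smaller: Adgre5 (-1.19), Bmf (-1.16), Cat (-0.25), Cd180 (-0.57), Cebpg (-1.17), Cyc1 (-0.51), Elovl6 (-0.97), Hvcn1 (-1.30), Irf8 (-0.53), Itga6 (-0.70), Itgav (-0.15), Jdp2 (-0.88), Lifr (-0.80), Mmp11 (-1.10), Pax5 (-1.22) and Traf6 (-0.46). Jak1 turned to 0.01. With the probe sets of a gene averaged, limma did not call Bmf (-0.48), E2f8 (0.53), Itgav (-0.11), Jak1 (-0.10), Jdp2 (-0.69), Lifr (-0.23), Ptpn6 (0.27) or Traf6 (-0.22). With only the groups compared in the fit, Cd74 (0.25) and Mmp11 (-1.37) were not called. Cd74 was not called without the vehicle array 1 (0.18) or without either 24 h array (0.26 and 0.24), and Mmp11 was not called without the 24 h array 1 (-0.85), the vehicle array 1 (-1.23) or the vehicle array 2 (-1.51). Set against the HAFTL arrays in place of vehicle C10, limma called neither Irf8 (0.05) nor Hvcn1 (0.32), Lifr (0.42) or Esr1 (0.58), nor, in their stated direction, Cd180 (-0.26), Crisp3 (-0.61) or Jak1 (-0.18), and Ccr7 was at the floor in both groups.

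The mean log2 signal of the spike-in probe sets was 8.18 and 7.14 on the 48 h arrays (SD 0.74). Its SD was 0.17 at 24 h and 0.22 in vehicle. The 48 h arrays were in the fit behind the 24 h tests, so with spike-in scaling their spread entered the error of those tests. Its part in the calls lost with that scaling was not tested. Fewer members of most lists were called with spike-in scaling, the lists named next among them. Among falls, 14 of 38 mitosis, 23 of 39 replication, 11 of 23 ribosome biogenesis, 8 of 20 pre-B receptor, 3 of 9 recombination, 4 of 20 unfolded protein response, 4 of 19 chromatin and 2 of 15 ERK feedback genes were called lower. Among rises, 10 of 22 Toll-like receptor, 13 of 30 lysosome, 13 of 31 actin, 7 of 22 sterol, 6 of 17 class I, 6 of 18 JAK, STAT and SOCS, 5 of 14 NF-kB, 5 of 11 interferon ligand and factor, 4 of 14 Bcl2 and caspase and 1 of 11 iron genes were called higher. In lists that had gone both ways, 2 higher and 1 lower were called in the CDK inhibitor list, 2 and 1 among p53 targets, 1 and 1 in the Myc network and 1 and 2 among class II genes, while the calls among oxidative phosphorylation genes were lost. Interferon effector genes were called higher in 34 of 36 cases.

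**Figure D3:**
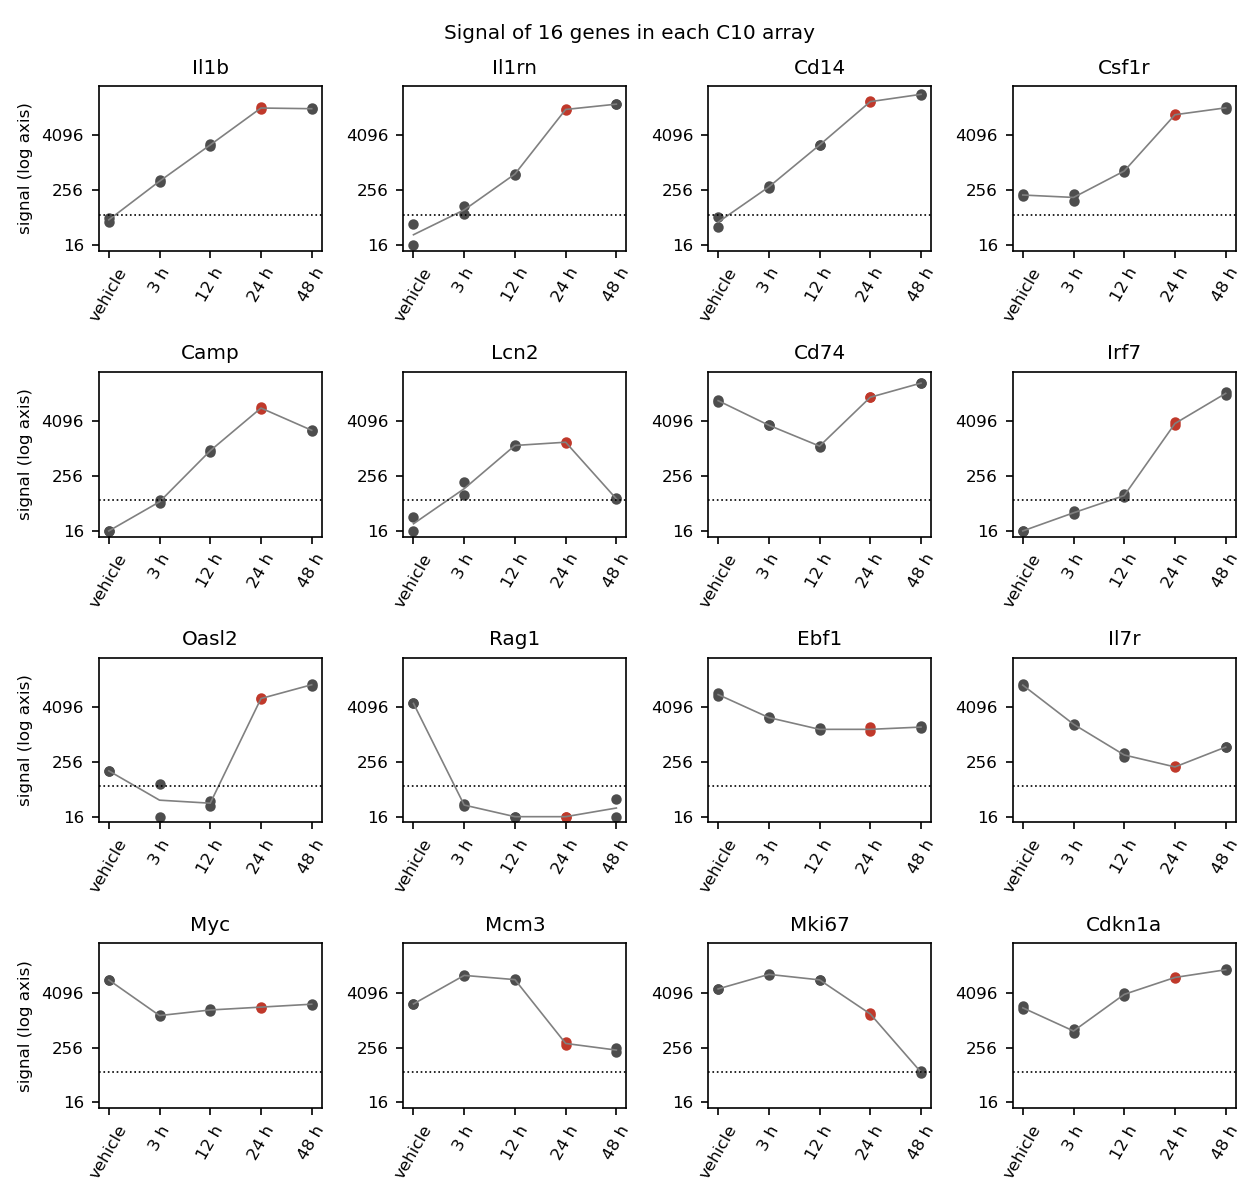
Signal (y axis, log scale) of 16 genes in each of the 10 C10 arrays, by treatment (x axis); points are single arrays, the grey line joins the means of the 2 log2 signals, 24 h is in red and the dotted line is the level of 74.65. Il1b and Cd14 are under the level in vehicle and above it from 3 h, Csf1r is above it in vehicle already, and all are higher at 24 h. Cd74 is lowest at 12 h, and Lcn2 is above the level at 24 h and close to it at 48 h.

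The 24 h arrays were also set against the 12 h arrays, a comparison that shares those 24 h arrays with the one above. From 12 h to 24 h 2611 genes (22.3%) rose and 2702 (23.1%) fell, with a median of -0.01; with spike-in scaling the share of rises among calls went from 49.1% to 30.4% and the median to -0.43. All 36 of 36 interferon effector genes rose over this interval (median 3.39), whereas at 12 h 9 were higher and 16 lower than in vehicle (against 22.3% and 28.7% of all genes), with a median of -0.41 that turned to 0.24 with spike-in scaling. Oasl2, an antiviral relative of the oligoadenylate synthetases, read 165 and 160.0 in vehicle, 36.2 and 27.6 at 12 h and 6252 and 6314 at 24 h (for 24 h against 12 h, at least 84.2-fold higher, adjusted p = 6.35e-05). Slfn1, a schlafen gene of lymphoid and myeloid cells, was at the floor in vehicle and at 12 h and read 1667 and 1776 at 24 h (at least 23.1-fold higher, adjusted p = 5.29e-09). C3ar1 and Ccl2 were among the 10 largest rises as well, with C3ar1 at 29.9 and 22.5 at 12 h (at least 47.2-fold higher, adjusted p = 3.21e-06) and Ccl2 57.4 and 75.9 (6.96 ± 0.48, of uncertain size because 1 array of the dimmer group was under the level). These genes thus had their rise after 12 h.

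Class II genes were lower at 12 h than in vehicle, and some rose again by 24 h. All 9 were lower at 12 h than in vehicle (median -2.12, or -1.43 with spike-in scaling), and from 12 h to 24 h 5 of them rose and 2 fell. Cd74 read 11051 and 12142 in vehicle, 1136 and 1194 at 12 h and 13710 and 13856 at 24 h, a rise of 3.56 ± 0.08 over the interval. H2-DMa read 218 and 152 at 12 h and rose by 3.65 ± 0.21, while H2-Aa read 404 and 246 and fell on (at least 4.22-fold lower, adjusted p = 2.55e-04). A similar course was seen in Cfp, properdin of the complement system, with 692 and 567 in vehicle, 126 and 77.7 at 12 h and 1914 and 1903 at 24 h (4.27 ± 0.22), and in Alox5ap, which serves leukotriene synthesis, with 1864 and 1858 in vehicle, 661 and 671 at 12 h and 9739 and 9932 at 24 h (3.88 ± 0.10).

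The cell cycle genes took the opposite course. At 12 h 32 of 39 replication genes and 29 of 38 mitosis genes were higher than in vehicle (against 22.3% of all genes). Their medians were 1.27 and 0.93, or 1.95 and 1.65 with spike-in scaling. From 12 h to 24 h 38 of the 39 and 38 of the 38 fell (medians -2.59 and -2.30), against 23.1% of all genes. Cdc6, which loads the replicative helicase, read 367 and 406 in vehicle, 2568 and 2343 at 12 h and 20.2 and 87.3 at 24 h. Mcm3, a helicase subunit, went from 2346 and 2308 in vehicle up to 7880.2 and 8018 at 12 h and down to 337 and 295 at 24 h (-4.66 ± 0.12 from 12 h to 24 h). Rrm2, the regulated subunit of ribonucleotide reductase, went from 4110.1 and 4183 in vehicle up to 13627 and 14278 at 12 h and down to 506 and 674 at 24 h (-4.58 ± 0.14). In these genes the 24 h arrays were under both the vehicle and the 12 h arrays. Sterol synthesis genes, 19 of 22 higher at 12 h than in vehicle, fell in 15 cases from 12 h to 24 h (median -0.63) and at 24 h 16 were higher than in vehicle.

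**Figure D4:**
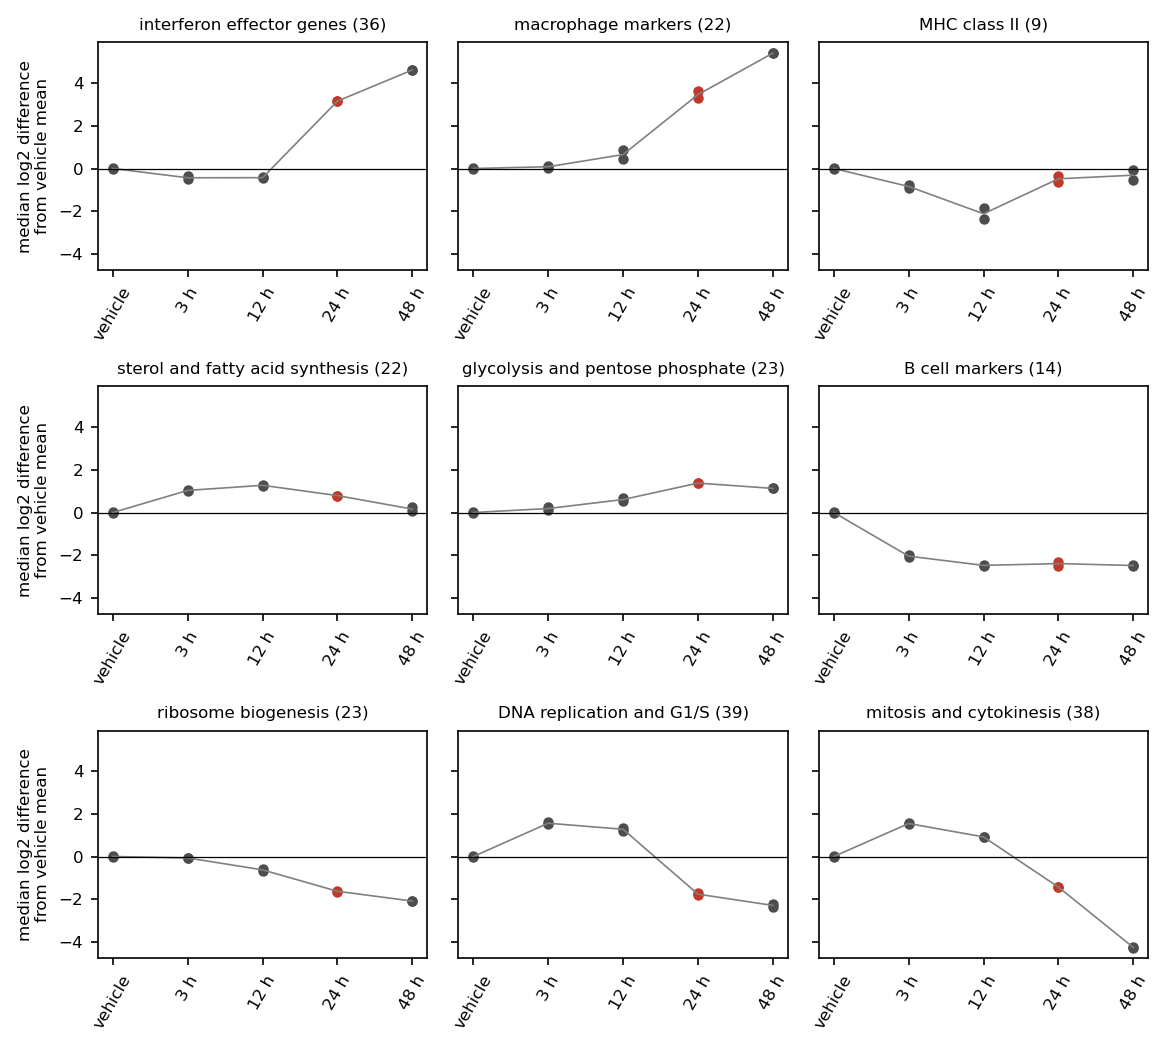
Median log2 difference from the vehicle mean (y axis) over the tested members of 9 gene lists (number in brackets) in each C10 array, by treatment (x axis); points are single arrays and the grey line joins their means, with 24 h in red. The interferon list is slightly below 0 at 12 h, where spike-in scaling turns it to 0.24, and near 3.14 at 24 h; the replication and mitosis lists are above 0 at 12 h and below it at 24 h.

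After 24 h fewer genes changed. This comparison again shares the 24 h arrays. From 24 h to 48 h 1108 genes (9.47%) rose and 2095 (17.9%) fell, with a median of -0.07; with spike-in scaling 190 rose and 126 fell, and the median was 0.22. Mitosis genes fell in 37 of 38 cases (median -2.88). Ube2c, the ubiquitin-conjugating enzyme of mitotic exit, had been near its vehicle signal at 24 h (2243 on both arrays in vehicle, 1454 and 1712 at 24 h, -0.51 ± 0.28, adjusted p = 0.155) and read 32.3 and 16 at 48 h (at least 21.1-fold lower, adjusted p = 1.12e-05). Mki67 read 1304 and 1503 at 24 h and 69.6 and 78 at 48 h. Interferon effectors rose again in 28 of 36 cases (median 1.08), and oxidative phosphorylation genes, evenly divided at 24 h, fell in 21 of 29 (median -0.39). Apoc2, an apolipoprotein that activates lipoprotein lipase, rose from 791 and 709 to 11260 and 11996 (3.96 ± 0.73), Msr1, a scavenger receptor, rose from 273 and 284 to 3313 and 3640.2 (3.64 ± 0.72), and Cxcl3, a neutrophil chemokine, went from 16 and 31 to 662 and 696 (at least 9.09-fold higher, adjusted p = 6.58e-04). At 24 h these genes had thus not reached their highest signal.

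Some genes were at their highest or lowest at 24 h among 12 h, 24 h and 48 h. Tgm2, a transglutaminase of macrophages, rose from 12 h (57.2 and 89.6) to 24 h (1097 and 1224) and fell by 48 h (189 and 260.4), with vehicle signals of 129.7 and 125. Anxa2, a membrane-binding annexin, stood at 1938 and 1928 at 24 h, above 475 and 378 at 12 h and 421 and 312 at 48 h. Pi16, a peptidase inhibitor, stood at 1906 and 1945 at 24 h, above 235 and 284 at 12 h and 481 and 475 at 48 h. Lta and Adgre5, both lower than in vehicle at each of these times, had a partial return at 24 h: Adgre5, the CD97 adhesion receptor, fell from 2674 and 2877 in vehicle to 242 and 249 by 12 h, then read 937 and 1066 at 24 h before 236 and 258 on the 48 h arrays. Lcn2, the siderophore-binding protein lipocalin 2, held 1155 and 1254 at 12 h and 1379 and 1458 at 24 h, then dropped to 83.5 and 78.7 by 48 h. The 10 genes lowest at 24 h were dim: for Notum, a Wnt-inactivating enzyme, the 24 h signals were 17.5 and 16, against 72.5 and 109 at 12 h and 135 and 80.3 at 48 h. Since these genes were chosen for this course, the values are a description.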

How the data were processed

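RNA from 12 samples in 6 groups of 2 was read on Affymetrix mouse arrays of 45101 probe sets, with biotin labelling of Trizol-extracted RNA, per the labels' protocols. The authors deposited linear intensity values per probe set whose mean after trimming 2% at each end was 500 on every array; how they were made is not given in the sources used here. Their spread near background limits precision, as does the number of arrays.

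The deposited intensities were quantile-normalised, set to a floor of 16 and taken to log2. Of the probe sets, 34945 had 1 gene in the platform annotation (34741 of them matched in RefSeq, GRCm38.p6), 932 several and 9160 none; genes of large families may also take up signal of their relatives. The brightest probe set stood for each of 18193 genes, and 11696 genes above 6.222 (log2) on at least 2 arrays were tested in limma 3.58.1 (R 4.3.3) with 1 mean per group and all 12 arrays in the fit, which was tested on simulated data with 200 changed genes. P-values were adjusted by Benjamini-Hochberg.

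The members and the 55 gene lists were chosen with earlier results of these data known. Named were the 20 largest rises and falls at 24 h, up to 5 genes of each list with the largest difference and those against its majority, the 10 largest rises and falls from 12 h and to 48 h, the 10 largest peaks and troughs, and a fixed set that includes Cebpa, Esr1, Csf1r and Cdkn1a. Gbp3, Ifnb1, Bop1, Rrp9 and Zap70 were added after their values were seen. Alternatives covered scaling, filter, floor, pseudocount, probe set choice, prior, arrays in the fit, control group, minimum change, the replicate number and each array left out.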

Additional observations from a re-analysis of the deposited data

Results flagged for a closer look

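Several named genes were called in opposite directions at 12 h and at 24 h, both against the same vehicle arrays, and the difference between 24 h and 12 h was itself called by limma. Lower than vehicle at 12 h and higher at 24 h were Cd74 (24 h minus 12 h, 3.56 on the log2 scale), H2-DMa (3.65), Cfp (4.27), Alox5ap (3.88), Fcgr1 (4.67), Il18 (2.83), Tap1 (2.03), Ptpn6 (1.41) and Tgm2 (4.02). With spike-in scaling the 12 h difference from vehicle of Fcgr1 turned from -0.44 to 0.25, and those of Tap1 (-0.70 to -0.04), Tgm2 (-0.83 to -0.15), Ptpn6 (-0.99 to -0.23), Il18 (-1.36 to -0.68) and Alox5ap (-1.48 to -0.80) came closer to 0. Whether these 12 h falls were called with that scaling was not tested. Ifih1 was at least 17.4-fold and Oasl2 at least 84.2-fold higher at 24 h than at 12 h, with both 12 h arrays under the level. The reverse order, higher at 12 h and lower at 24 h, was seen in the cell cycle genes Cdc6 (-5.87), Mcm3 (-4.66), Rrm2 (-4.58), Mcm7 (-3.82), Ncapg (-3.13) and Mki67 (-2.49), and in Pfkfb3 (-2.63), which acts in glycolysis. The differences of Tgm2 and Cdc6 are of uncertain size because an array of the dimmer group was under the level.

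Probe sets without a gene in the annotation also held signal. Probe set 1423954_at was at the floor on both vehicle arrays and read 5012 and 4900 at 24 h, at least 66.4-fold higher. Probe set 1456893_at was at least 37.5-fold higher at 24 h. In the other direction, 1424631_a_at read 3590 and 3726 in vehicle and was at least 49.0-fold lower at 24 h, and 1426174_s_at was at least 22.5-fold lower. Of 3977 tested probe sets without a gene, 1085 were called higher and 613 lower. Over all 26524 tested probe sets, named or not, 6284 were called higher and 7002 lower.

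Groups of 2 arrays are too small for a test of outlying arrays, so none was run.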

How the results depend on the processing

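Over the single-gene differences between 24 h and vehicle and their alternatives, 3026 stayed on their side of the threshold, 72 lost the call, 11 gained it and 6 reversed. A difference called in neither fit counts among the 3026 whatever its direction. Scaling to spike-ins gave 1441 higher and 815 lower genes at 24 h against vehicle, 502 and 1152 against 12 h, and 190 and 126 at 48 h against 24 h; Jak1 turned to 0.01, and the medians of p53 targets (0.04), T and NK markers (0.16) and housekeeping genes (0.08) became positive. Testing for a change above 1 on the log2 scale left 774 and 841, 472 and 389, and 38 and 118 genes. Fitting only the groups compared gave 456 higher and 655 lower genes at 48 h against 24 h. With each probe set tested on its own, chosen after seeing the data, 6284 probe sets were higher and 7002 lower. Against HAFTL, Esr1 (0.58), Hvcn1 (0.32), Irf8 (0.05), Lifr (0.42) and Gbp3 (0.62) reversed, as did the medians of class II genes (0.10) and p53 targets (0.05). With probe sets averaged, the medians of the Myc network (-0.14) and of housekeeping genes (0.15) changed sign. For these the cause was not tested, beyond the smaller number of arrays or the stricter threshold where those were the alternative.

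Leaving out 1 array gave 2426 to 2527 genes higher and 3330 to 3483 lower at 24 h against vehicle, and 693 to 749 higher and 1271 to 1720 lower at 48 h against 24 h, with the lone array assumed to vary like the other groups; the count of rises to 48 h was lowest without the 24 h array 1. The median of oxidative phosphorylation genes ran from -0.03 to 0.04 and that of T and NK markers from -1.53 to 0.62.

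The replicate numbers did not pair the arrays: same-numbered arrays deviated together with correlations from -0.0337 to 0.0415. The replicate block gave 2811 higher and 3834 lower genes at 24 h against vehicle, and changed no named call in that comparison.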
